A study of Gallus gallus with 50 samples.

Results

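Of the 24356 genes counted in cells sorted from early chicken heads, 175 were both abundant and steady across stages and sorted fractions. They were chosen by their levels in CPM (a gene's reads divided by all counted reads of its library and scaled to 1000000). A gene was taken if its mean reached 100 CPM in each of the 12 groups and if its largest group mean was at most 1.3 times its smallest, a quotient called the group ratio below. Genes of the mitochondrial genome and of chromosome W were left out, and 0 of them would have passed. The level condition alone was met by 1508 genes, of which the steady genes were 11.6% and 1333 were other abundant genes.

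Genes whose transcript share hardly moves between samples serve as internal references in expression work, where the level of a gene of interest is read against them. Such genes often encode parts of the machinery that every cell needs, such as protein synthesis, protein turnover and energy metabolism. Neural crest is a migratory population of the vertebrate embryo that leaves the dorsal neural tube and gives rise to much of the facial skeleton, peripheral neurons and glia, and pigment cells. A share of reads is a relative quantity, so that a gene with a constant share need not have a constant number of transcripts per cell. In bulk samples fewer expressing cells and less RNA per cell cannot be told apart. The files give Ensembl identifiers without symbols, so no role is given to any gene below and the fractions were not checked against cell type markers.

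Embryos incubated ex ovo at 37C had been electroporated with ptk-TFAP2AE1-GFP, a reporter plasmid in which an enhancer named TFAP2AE1 drives green fluorescent protein. Around 20 dissected heads were pooled for each sample and sorted, and polyadenylated RNA was sequenced with strand information. The GFP+ groups, labelled neural crest and named NC_ with the stage, and the GFP- groups, labelled WE_ with the stage, were taken at Hamburger-Hamilton stages HH6, HH8, HH10, HH12, HH14 and HH16. Both fractions of every stage carried the reporter treatment, and no group without electroporation was included. The GFP- fraction holds any head cell in which the reporter was not active, whatever its type. The authors' filtered table keeps 42 of 50 libraries, namely 5 libraries of each fraction at HH16, 4 at HH12 and 3 at each remaining stage, and the series' design text says that libraries of low quality were removed from it. Apart from pool names in the titles, nothing in the labels states separate embryos for the libraries within a group, and the p-values therefore reflect only how far these libraries differ, which may be technical.

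The 8 left-out libraries held 512123 to 27432044 counted reads and the 42 kept libraries 4869937 to 29316689. In the kept libraries the steady gene with the fewest reads had 401. NC_6 replicate 4, the left-out library with the fewest reads, stood apart, and among the kept libraries NC_16 replicate 3 and WE_16 replicate 5 deviated most. The spread between libraries, the differences between library sets and the selection are given with and without these libraries.

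The group ratio of the 175 steady genes ran from 1.11 to the limit, and that of all 1508 abundant genes had a median of 1.53 and reached 11.6. The limit does not fall in a gap between the genes. ENSGALG00000029261 on chromosome 3 and ENSGALG00000012159 on chromosome 7 were the nearest inside it, both at 1.299. Nearest outside it, both at 1.302, were ENSGALG00000002659 on chromosome 17 and ENSGALG00000008858 on chromosome 3. With the limit at 1.2 the rule finds 18 genes, and with the limit at 1.5 it finds 696.

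**Figure D1:**
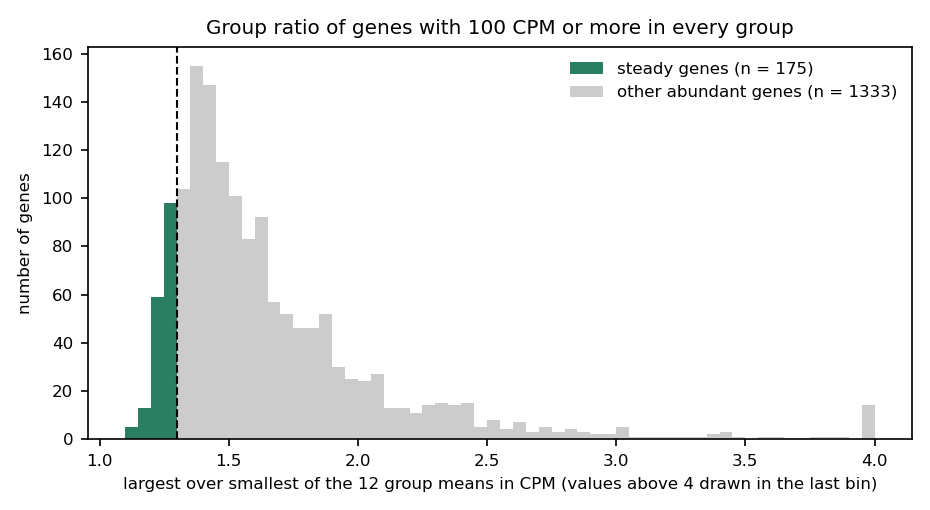
Number of genes (vertical axis) by group ratio (horizontal axis, largest over smallest of the 12 group means in CPM) for the 175 steady genes (green) and the 1333 other abundant genes (grey). The dashed line marks the limit of 1.3, which lies on the rising flank of a continuous distribution.

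Mean levels of the steady genes ran from 111 to 10626 CPM with a median of 207 CPM, against a median of 219.5 CPM in the other abundant genes. Steady genes occurred at every level of abundance. They made up 81 of 634 abundant genes between 100 and 200 CPM (12.8%), 63 of 621 between 200 and 500 CPM (10.1%), 22 of 169 between 500 and 1000 CPM (13%) and 9 of 84 at 1000 CPM or more (10.7%). Per kilobase of exon, the scale on which different genes can be compared, the steady genes had a median level of 78.6 CPM and a range of 26.4 to 3248 CPM, and the other abundant genes had a median of 84.2 CPM.

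The steadiest gene by group ratio was ENSGALG00000009288 on chromosome 14 (14178481 to 14188580, minus strand, GRCg6a), with 7 exons and 1897 exon bases and a ratio of 1.11. At HH6 it had 216, 220.0 and 222 CPM in GFP+ libraries, against 222, 235 and 274 CPM in GFP- libraries. At HH8 it had 227, 231 and 232 CPM in GFP+ libraries, against 226, 233 and 241 CPM in GFP- libraries. At HH10 it had 239, 246 and 246 CPM in GFP+ libraries, against 189, 219.9 and 259.5 CPM in GFP- libraries. The fractions overlapped at each of these stages, at HH6 only just, and the GFP- libraries lay further apart than the GFP+ libraries. At HH12 it had 204, 221, 242 and 264 CPM in GFP+ libraries, against 196, 214, 219 and 264 CPM in GFP- libraries. At HH14 it had 221, 254 and 259 CPM in GFP+ libraries, against 195, 230.3 and 244 CPM in GFP- libraries. At HH16 it had 213, 221, 231, 242 and 248 CPM in GFP+ libraries, against 200.3, 205, 225, 237 and 264 CPM in GFP- libraries. The group means lay between 219.6 ± 3.0 CPM in NC_6 and 244 ± 20.7 CPM in NC_14 (SD, n = 3 each), and single libraries between 189 CPM in WE_10 replicate 3 and 274 CPM in WE_6 replicate 3. The span between single libraries was 1.45-fold. It cannot be narrower than the span between group means, which are averages of the same libraries. The gene with the next lowest ratio, ENSGALG00000005622 on chromosome 12 (9119458 to 9129851, minus strand), had a ratio of 1.12 and a mean of 339 CPM, and its libraries ran from 282 CPM in NC_10 replicate 2 to 459 CPM in NC_14 replicate 2.

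The most abundant steady gene was ENSGALG00000015917 on chromosome 3 (81503064 to 81509231, plus strand, 8 exons, 3271 exon bases). It averaged 10626 CPM, and at 3248 CPM per kilobase of exon it was also the highest steady gene per length. At HH6 it had 9507, 9741 and 10416 CPM in GFP+ libraries, against 9527, 10020.5 and 12726 CPM in GFP- libraries. At HH8 it had 9146, 9369 and 10069 CPM in GFP+ libraries, against 9804, 11564 and 12651 CPM in GFP- libraries. At HH10 it had 11146, 11173 and 12544 CPM in GFP+ libraries, against 9303, 10405 and 11402 CPM in GFP- libraries. The 2 fractions overlapped at all 3 stages, with the middle library higher in GFP- cells at HH6 and HH8 and higher in GFP+ cells at HH10. At HH12 it had 8223, 9689, 10992 and 12146 CPM in GFP+ libraries, against 7841, 8287, 9564 and 12590.2 CPM in GFP- libraries. At HH14 it had 10072, 11466 and 12680.1 CPM in GFP+ libraries, against 9533, 12428 and 13074 CPM in GFP- libraries. At HH16 it had 9891, 10761, 11243, 11527 and 12663 CPM in GFP+ libraries, against 8739.7, 8952, 9579.6, 9953 and 12123 CPM in GFP- libraries. The fractions overlapped at these stages too, and the group ratio was 1.23, between 11678 ± 1886 CPM in WE_14 and 9528 ± 482 CPM in NC_8 (SD, n = 3 each). The next most abundant steady gene, ENSGALG00000028749 on chromosome 18 (9187889 to 9190934, plus strand, 6 exons), averaged 3972 CPM with a ratio of 1.27, and its libraries ran from 2776 CPM in NC_12 replicate 2 to 5767 CPM in NC_12 replicate 3, both of the same group.

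**Figure D2:**
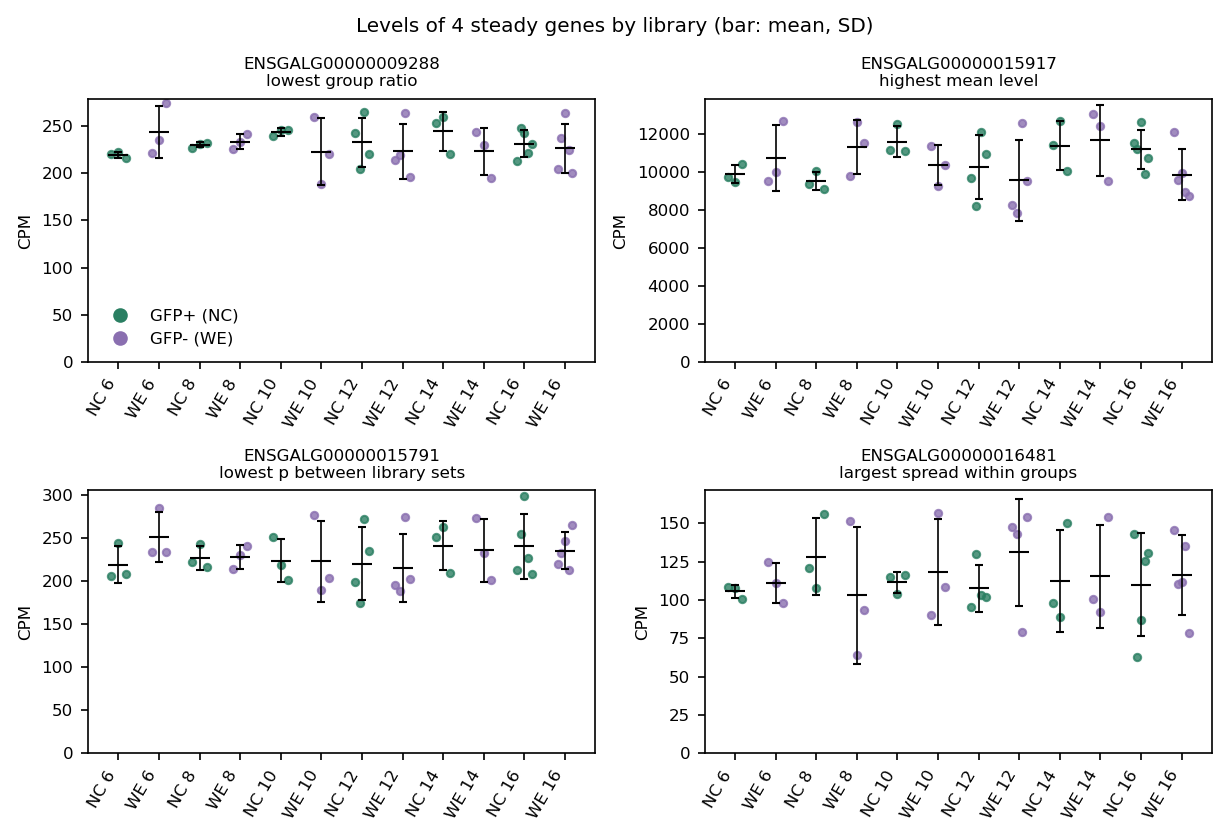
Levels in CPM (vertical axes, from 0) of 4 steady genes in the 42 kept libraries by group (horizontal axes), with GFP+ libraries in green and GFP- libraries in purple. Bars give the mean and SD of each group of 3 to 5 libraries. ENSGALG00000016481 spreads widely in some groups, such as 63.1 to 143 CPM in NC_16, and little in others, such as 101 to 109 CPM in NC_6. Its group means differ by up to 1.27-fold. The libraries of ENSGALG00000009288 stay between 189 and 274 CPM.

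Together the steady genes took 6.5% to 7.68% of the reads of a kept library. The lowest share was that of NC_6 replicate 2 and the highest that of NC_16 replicate 1. By group the mean share ran from 6.93% ± 0.413 in NC_6 (SD, n = 3) to 7.35% ± 0.275 in NC_16 (SD, n = 5). The genes did not share a common highest or lowest group. The group with the largest mean was NC_16 for 30 genes (40 without NC_16 replicate 3 and WE_16 replicate 5), NC_12 for 21 and NC_8 for 20, and the group with the smallest mean was WE_14 for 31 genes and NC_14 and WE_6 for 19 each.

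Because the group means chose the genes, their differences between groups are a description only. The median log2 difference of the steady genes between GFP+ and GFP- group means was -0.02 at HH6, 0.05 at HH8, -0.01 at HH10, 0.03 at HH12, 0.02 at HH14 and 0.03 at HH16, and single genes stayed between -0.34 and 0.33. Between neighbouring stages of a fraction the largest moves were a log2 difference of 0.37 for ENSGALG00000016691 in NC_12 over NC_10 and of -0.37 for ENSGALG00000053917 in WE_14 over WE_12, neither of which passed the test. In edgeR's quasi-likelihood test with Benjamini-Hochberg adjustment at 0.05, 0 of the 175 steady genes passed over any of the 12 groups, where 28.1% of 15737 tested genes and 21.9% of the abundant genes did. The counts were also 0 for GFP+ against GFP- cells at 1 or more of 6 stages (4.17% of all genes tested) and for neighbouring stages in 1 or more of 10 steps (3.57%). Unadjusted p was below 0.05 for 4 steady genes over the 12 groups (2.29%) and for 38.9% of all genes tested. Between fractions at HH16 it was below 0.05 for 29 of the 175 steady genes, a larger share than the 1868 of 15737 genes tested. At each other stage it was so for 1 to 5 steady genes. Under the column sum in place of TMM, a scaling described below, the HH16 counts were 3 steady genes and 1641 of 15737 genes. With the pool of embryos named in the titles as a replicate block, 0 steady genes passed between fractions, where 7.23% of all genes tested did. In that fit unadjusted p at HH16 was below 0.05 for 53 of the 175 steady genes, again a larger share than the 2569 of 15737 genes tested. At each other stage it was so for 3 to 8 steady genes. In DESeq2, 12 steady genes passed over the 12 groups, where 39.4% of all genes tested did. Between fractions 1 passed in DESeq2 (9.84% of all genes), and between stages 2 passed (8.34%). The rule uses these contrasts, and nothing is read from the counts.

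The rule takes the column sum as the measure of depth. On library sizes scaled by TMM, a normalisation that sets the bulk of genes level between libraries, the group ratio of the same 175 genes had a median of 1.29 and ran from 1.16 to 1.43, and 100 of them stayed at or below 1.3. On DESeq2 size factors 104 did. Rerun from the start, the rule found 129 genes on TMM-scaled sizes, of which 98 were among the 175, and 136 on DESeq2 size factors, of which 102 were. Among the 6 comparisons of fractions the scalings differed most at HH16, with a median log2 difference between GFP+ and GFP- cells of 0.16 over the steady genes under TMM, where the median of all genes tested was -0.03, and of 0.03 over the steady genes under the column sum, where the median of all genes was -0.14. For WE_10 over WE_8 the median of the steady genes was -0.16 under TMM, where that of all genes was -0.07, and 0.02 under the column sum, where that of all genes was 0.10.

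Within groups the libraries of the steady genes also lay closer together than those of the other abundant genes. The median SD of log2 CPM among the libraries of a group was 0.162 for the steady genes and 0.25 for the other abundant genes, and the steady genes had the lower median in each of the 12 groups, from 0.113 against 0.154 in NC_8 to 0.199 against 0.376 in NC_16. Without NC_16 replicate 3 the NC_16 values were 0.154 and 0.303, and without WE_16 replicate 5 the WE_16 values were 0.136 and 0.199, where they had been 0.199 and 0.297 with it. The group means that chose the genes come from the same libraries, so this too is a description. Over all 42 kept libraries the highest CPM of a steady gene was a median of 1.84 times the lowest, and that of another abundant gene 2.88 times. Within a 2-fold span over the 42 libraries lay 109 of the 175 steady genes (62.3%) and 156 of the 1333 other abundant genes (11.7%), and 9 steady genes exceeded 3-fold. These spans rested in part on NC_16 replicate 3 and WE_16 replicate 5. In them 71 (40.6%) and 67 (38.3%) steady genes lay more than 1.3-fold from the group's other kept libraries. The other abundant genes deviated in these libraries too, with 62.8% and 53.9% of them beyond 1.3-fold. Over the other 40 libraries the median span was 1.71-fold for the steady genes and 2.51-fold for the other abundant genes, 149 steady genes (85.1%) and 278 other abundant genes (20.9%) lay within 2-fold, and 0 steady genes exceeded 3-fold, the widest span being 2.48-fold.

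The lowest median SD within groups was 0.0882, for ENSGALG00000016536 on chromosome 3 (104913067 to 104937303, minus strand), which averaged 382 CPM. A low median did not exclude single deviating libraries, since this gene had 233 CPM in NC_16 replicate 3 and 592 CPM in NC_16 replicate 5. ENSGALG00000000613 on chromosome 28 followed at 0.0920. The highest was 0.372, for ENSGALG00000016481 on chromosome 3 (101578290 to 101621518, minus strand), which averaged 114 CPM. Its 42 libraries ran from 63.1 CPM in NC_16 replicate 2 to 157 CPM in WE_10 replicate 3, a 2.48-fold span, while its group means differed by 1.27-fold.

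The 8 libraries left out of the filtered table were not used to choose the genes. They are not independent of the kept libraries, since their deviations are taken from the group means of the rule and 3 of them share a pool of embryos, by title, with a kept library of the other fraction (WE_12 replicate 4, NC_10 replicate 3 and NC_12 replicate 5). In 7 of the 8 a smaller percentage of steady genes than of other abundant genes lay more than 1.3-fold from the mean of the kept libraries of its group. In NC_12 replicate 5, 2 steady genes (1.14%) lay beyond 1.3-fold, against 15.2% of the other abundant genes. In NC_10 replicate 3 it was 8 (4.57%) against 31.8%, and in WE_6 replicate 4 it was 17 (9.71%) against 46.7%. WE_8 replicate 4 had 19 (10.9%) against 55.4%, and NC_8 replicate 4 had 25 (14.3%) against 33.9%. WE_12 replicate 4 had 48 (27.4%) against 56%, and WE_10 replicate 1 had 90 (51.4%) against 71.1%. The exception was NC_6 replicate 4, with 168 (96%) against 92.1%. The median over the left-out libraries was 12.6% of steady genes and 51.1% of other abundant genes. In kept libraries, measured against the other kept libraries of the group, the medians were 8.86% of steady genes and 29.8% of other abundant genes.

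NC_6 replicate 4 stood farthest from its group. The steady genes took 1.05% of its 512123 reads, and 160 of the 175 had a lower CPM there than in any kept library. This was not particular to the steady genes. Their median log2 difference from the kept libraries of the group was -2.28, against -2.36 for the other abundant genes. More than 1.3-fold away lay 96% of the steady genes and 92.1% of the other abundant genes. At this depth and this lowered share, 27 of the 175 had fewer than 10 reads, and 1 had 0, which allows up to 5.86 CPM. ENSGALG00000015917 had 199 CPM in NC_6 replicate 4, against 9507 to 10416 CPM in the kept GFP+ libraries of HH6. ENSGALG00000009288 had 76.2 CPM in it, against 216 to 222 CPM in the same kept libraries. The other left-out libraries gave the steady genes 6.44% to 7.22% of their reads, within or just under the range of the kept libraries. The 10 most abundant genes took 1.26% of the reads of NC_6 replicate 4 and 5.68% to 8.34% of those of kept libraries. Below the range of kept libraries were also NC_8 replicate 4 with 3.84%, WE_6 replicate 4 with 4.06% and NC_10 replicate 3 with 4.38%. NC_6 replicate 4 had 13769 genes with 10 or more reads in spite of its few reads, and NC_8 replicate 4, with 3238290 reads, had 16842, more than any other library. Kept libraries had 11128 to 14725 such genes. The part of these measures in the values of the steady genes was not tested.

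**Figure D3:**
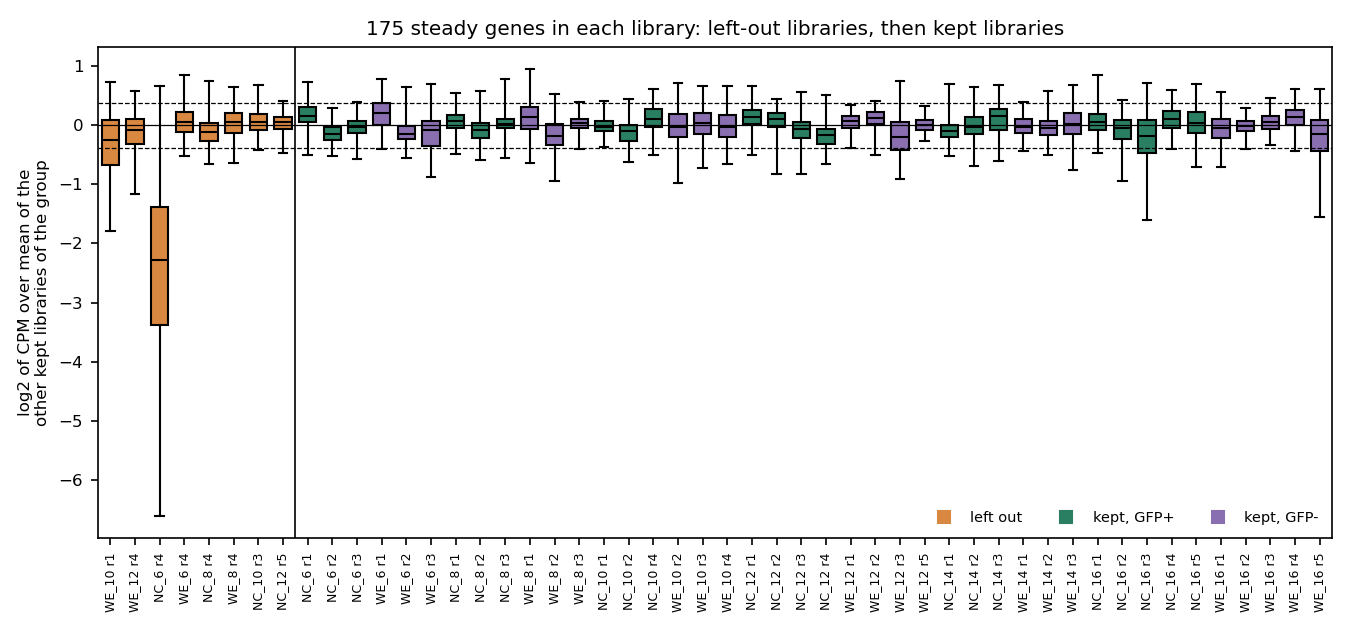
Log2 of each steady gene's CPM over the mean of the other kept libraries of its group (vertical axis) in every library (horizontal axis), with the 8 left-out libraries first in orange, then the kept GFP+ (green) and GFP- (purple) libraries. Boxes give quartiles and median, whiskers the lowest and highest gene, and dashed lines 1.3-fold either way. Genes with 0 reads in NC_6 replicate 4 are not drawn. NC_6 replicate 4 has a median of -2.28, while the medians of all other libraries lie between -0.26 and 0.21. The other abundant genes, not drawn, have a median of -2.36 in NC_6 replicate 4.

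Across the left-out libraries as a whole, tested against the kept libraries with group as a term, 0 of the 175 steady genes passed, against 0.976% of the 16699 genes tested. Since 0 of the 1508 abundant genes passed either, the count is not particular to the steady genes. Unadjusted p was below 0.05 for 20 steady genes (11.4%) and for 15.4% of all genes tested. In DESeq2 2 steady genes passed (1.14%), where 9.57% of all genes tested and 0.796% of the abundant genes did. The median log2 difference of the steady genes, left-out over kept, was -0.28, with 174 of 175 below 0 and a range of -0.56 to 0.11. The median was -0.26 over the other abundant genes, with 1282 of 1333 below 0. Over all genes tested it was 0.00, with 8322 of 16699 below 0. The steady and the other abundant genes thus lay at about the same value. The median rested on NC_6 replicate 4, without which that of the steady genes was -0.07. The share of all genes that passed moved both ways with single libraries. In edgeR it was 0 of 16123 without NC_6 replicate 4 (4.14% at an unadjusted p below 0.05, and 4.57% of the steady genes) and 0 of 16100 without NC_8 replicate 4 (7.26% and 7.43%). It was 14.3% to 14.5% without any 1 of the 6 HH14 libraries, with 1 steady gene passing in each of those 6 fits. HH14 holds no left-out library, and the low-count filter by group kept 19643 to 19661 genes in these 6 fits, against 16699 in the main fit. With no filter on low counts the share was 14.3% of 22750 genes, also with 1 steady gene. The median also depended on the scaling, with a median of -0.18 for the steady genes and 0.23 for all genes under the column sum. Of the 8 left-out libraries 6 belong to 1 of the library sets described below, 9846, which holds no kept library of HH6 or HH8, so that left-out status and library set cannot be told apart at those stages. With library set as a further term 0 steady genes passed, against 0.0299% of all genes tested (2049 genes at an unadjusted p below 0.05, of which 9 were steady genes), and the median of the steady genes was -0.20. The lowest p-values among steady genes were those of ENSGALG00000029247 on chromosome 33 (5786099 to 5793178, minus strand; log2 difference -0.48, edgeR adjusted p = 0.106) and ENSGALG00000013452 on chromosome 2 (89253790 to 89301445, plus strand; log2 difference -0.56, edgeR adjusted p = 0.164). ENSGALG00000029247 had 76.2 to 211 CPM in the left-out libraries and 153 to 315 CPM in the kept libraries, so that the ranges overlapped.

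The description of each library begins with a number that divides the libraries into 6 sets, called library sets here, and the labels do not say what the number stands for. Of the kept libraries 10 bear the number 9235, 10 the number 9236, 10 the number 9846, 6 the number 10262, 4 the number 10406 and 2 the number 9279. Sets differ in the stages they hold. All kept libraries of set 10406 are of HH12, those of set 9279 are WE_10 replicate 2 and NC_16 replicate 3, set 10262 holds HH6, HH8 and HH16, set 9846 holds HH10 to HH16, and sets 9235 and 9236 hold every stage. Since groups hold libraries of several sets, differences between sets within groups could be tested. The rule does not use these differences directly. Sets are spread unevenly over groups, though, so that a set effect can also move group means, which the rule limits. How many steady genes passed and how large their set effects were is thus partly fixed by the rule, and is a description beside other genes. In the test between sets, which takes the 42 libraries as independent, 58 of the 175 steady genes (33.1%) passed, against 38.7% of all 15737 genes tested and 58.6% of the 1508 abundant genes. The counts moved with the processing. In DESeq2 83 steady genes passed (47.4%), where 49.6% of all genes tested and 67.6% of the abundant genes did. With all 50 libraries 7 passed (4%), where 27.6% of all genes and 23.5% of the abundant genes did. By title, 19 pools of embryos gave both a GFP+ and a GFP- kept library, and in 17 of them both libraries stand in the same set, so that the p-values of this test are too small where libraries of a pool vary together. With the pool as a random replicate block in limma voom (estimated correlation 0.249) 50 steady genes passed (28.6%), 49 of them among the 58, where 32% of all genes and 49.8% of the abundant genes did. Without the block limma voom called 64 (36.6%), where 39.4% of all genes and 59.9% of the abundant genes passed. In the 21 GFP+ libraries alone, where each pool gives 1 library, 31 passed (17.7%), where 30.1% of all genes and 45.1% of the abundant genes did. In the 21 GFP- libraries alone 0 passed in edgeR, where 12.1% of all genes did (4394 of 15093 genes at an unadjusted p below 0.05, of which 11 were steady genes). Of the abundant genes 10.9% passed in GFP- libraries alone. The difference between the fractions in these counts was not tested. In each fraction alone set 9279 is 1 library, NC_16 replicate 3 in GFP+ and WE_10 replicate 2 in GFP-. Its set term and that library cannot be told apart there. The 2 most deviating kept libraries thus enter these fits differently. NC_16 replicate 3 has a set term of its own, while WE_16 replicate 5 shares that of set 9846 with other libraries.

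The range over set effects, from the test on both fractions, had a median log2 size of 0.40 over the steady genes and of 0.58 over the 58 that passed, where it ran from 0.32 to 1.10. It was 0.64 over the other abundant genes, whether or not they passed. The 58 were picked by the test on these same effects, so that their larger size is no separate result. Such a range also widens with noise, and the effect of set 9279 rests on 2 libraries.

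The lowest p belonged to ENSGALG00000015791 on chromosome 3 (76359719 to 76377160, plus strand, 5 exons), whose group ratio was only 1.17 (edgeR adjusted p = 6.51e-06, range over set effects 0.88 on the log2 scale). With the pool as a block in limma voom its adjusted p was 5.15e-05, and in edgeR it was 0.0031 in GFP+ libraries alone and 0.108 in GFP- libraries alone. Its libraries had 278 and 299.6 CPM in set 9279, and 175, 189, 196 and 199 CPM in set 10406. In set 9235 they had a lowest, median and highest value of 231, 251 and 286 CPM, in set 9236 of 208, 235 and 275 CPM, in set 10262 of 206, 217 and 235 CPM and in set 9846 of 189, 206 and 266 CPM. These levels compare stages as well as sets, and sets 9279 and 10406 share no group. Deviations by set are measured from the mean of a library's own group. That mean includes the library itself, which makes each deviation smaller, by more in groups of fewer libraries. The gene's mean log2 deviation was 0.31 in set 9279, 0.13 in set 9235, 0.04 in set 9236, -0.10 in set 10262, -0.13 in set 9846 and -0.20 in set 10406. The next lowest p belonged to ENSGALG00000008372 on chromosome 3 (3546571 to 3591719, minus strand, 30 exons; edgeR adjusted p = 0.000111), which ran the other way. It had 97.2 and 143 CPM in set 9279, and between 226 and 249 CPM in the 4 libraries of set 10406. In set 9235 it had a lowest, median and highest value of 137, 185 and 206 CPM, in set 9236 of 140, 174 and 230.3 CPM, in set 10262 of 193, 227 and 257 CPM and in set 9846 of 188, 222 and 254 CPM. From its own group means its deviation was -0.67 in set 9279, -0.21 in set 9236, -0.16 in set 9235, 0.13 in set 10406, 0.20 in set 9846 and 0.23 in set 10262. Within WE_12, where sets differ at 1 stage and fraction, the library of set 9236 had 275 CPM of ENSGALG00000015791, against 189 to 203 CPM in the other 3 libraries. For ENSGALG00000008372 it had 149.8 CPM, against 226 to 237 CPM in the other 3. This is 1 library, WE_12 replicate 3, in which 58 of the 175 steady genes lay more than 1.3-fold from their group, against a median of 15.5 in kept libraries. In this library that was 33.1% of the steady genes, against 59.9% of the other abundant genes. Set and single library cannot be told apart there. The most abundant steady gene, ENSGALG00000015917, passed too (adjusted p = 0.000616, range over set effects 0.65 on the log2 scale), with a mean log2 deviation from its own group means of -0.22 in set 10406 and of 0.16 in set 9279, and so did ENSGALG00000009288, the gene with the lowest group ratio (adjusted p = 0.00126, range 0.45). With the pool as a block in limma voom the adjusted p was 0.000587 for ENSGALG00000008372, 0.000998 for ENSGALG00000015917 and 0.0046 for ENSGALG00000009288. In edgeR on GFP+ libraries alone it was 0.0279 for ENSGALG00000008372, 0.0195 for ENSGALG00000015917 and 0.227 for ENSGALG00000009288, and on GFP- libraries alone 0.081 for ENSGALG00000008372, 0.165 for ENSGALG00000015917 and 0.105 for ENSGALG00000009288. All 4 of these genes thus missed the threshold in GFP- libraries alone, and ENSGALG00000009288 missed it in either fraction alone.

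The sets did not shift all steady genes alike. The median log2 deviation of the steady genes from their own group means was 0.09 in set 10406, 0.06 in set 10262, 0.02 in set 9846, -0.05 in set 9236, -0.06 in set 9235 and -0.08 in set 9279. Each set's value is a mean over 2 to 10 libraries, and a mean over few libraries is more often extreme. Set 9279, with 2 libraries, held the lowest deviation for 75 steady genes and the highest for 34. Without NC_16 replicate 3 and WE_16 replicate 5 its median was -0.02 in the 1 library left, which was lowest for 50 and highest for 44, and the medians of the other sets lay between -0.07 and 0.09. With all 42 libraries, 118 of the 175 steady genes lay above 0 in set 10262, and 35 of these were among the 58 that passed. The same 2 counts were 134 and 35 in set 10406 and 102 and 27 in set 9846. They were 60 and 26 in set 9279, 54 and 24 in set 9236, and 33 and 20 in set 9235. The 58 that passed had a median of 232 CPM and 2919 exon bases, and the 117 that did not pass had 197 CPM and 2705 exon bases. The count was 52 without NC_16 replicate 3, which belongs to set 9279, where 37.9% of all genes tested passed, and 81 without WE_16 replicate 5, where 45.7% did. Without both it was 68 (38.9%), where 45.8% of all genes and 61.6% of the abundant genes did. NC_16 replicate 3 (71 genes, 40.6%) and WE_16 replicate 5 (67 genes, 38.3%) are the kept libraries with the most steady genes beyond 1.3-fold from their group, against a median of 15.5. Of the other abundant genes 62.8% and 53.9% lay beyond 1.3-fold in them, against a median of 29.8% in kept libraries. The same libraries held 12876650 and 16416535 reads, and 11128 and 12278 genes with 10 or more reads, where kept libraries had a median of 13636.5 such genes. Without NC_16 replicate 3 the rule finds 183 genes, 162 of them among the 175, and without WE_16 replicate 5 it finds 190, 171 of them among the 175.

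**Figure D4:**
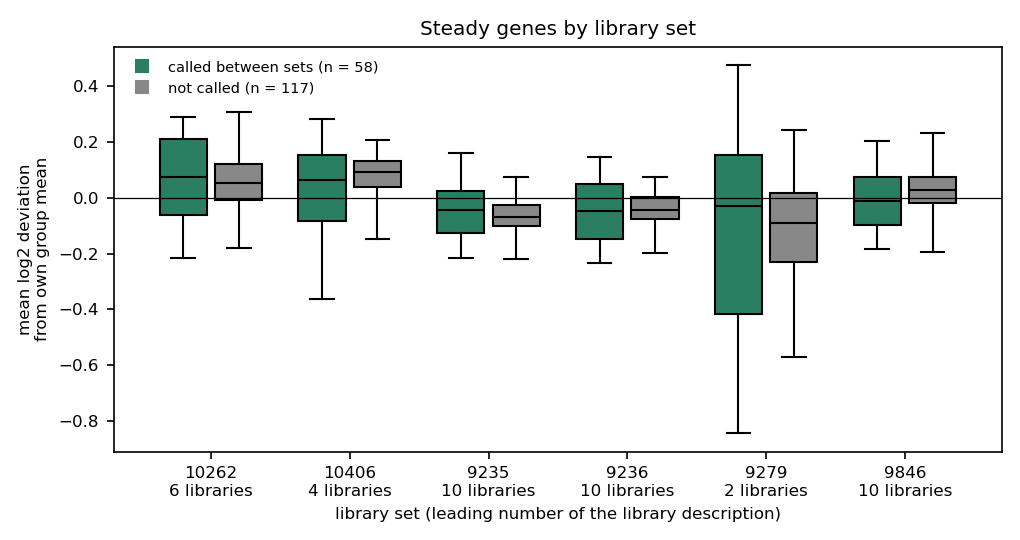
Mean log2 deviation of each steady gene from its own group mean (vertical axis) in the 6 library sets (horizontal axis, with the number of kept libraries), for the 58 genes that passed the test between sets (green) and the 117 that did not (grey). The group mean includes the library itself. Boxes give quartiles and median, whiskers the lowest and highest gene. The widest boxes are those of set 9279, whose means rest on the fewest libraries, and the lowest gene there lies at -0.84.

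The structure of the genes was not used by the rule. Steady genes were of medium size, with a median of 2775 exon bases against 2789 in the other abundant genes and 2290 in all genes tested. The lowest was 1074 and the highest 8989 bases, where the other abundant genes ran from 276 to 23664. None of the 175 steady genes had under 1000 exon bases, against 98 of the 1333 other abundant genes (7.35%), and 7 exceeded 5000 bases (4%), against 186 of the other abundant genes (14.0%). The 10th and 90th percentiles were 1778 and 4118 exon bases in the steady genes, against 1171 and 5747 in the other abundant genes. The median number of exons was 12 in the steady genes and 11 in the other abundant genes, and 0 steady genes had more than 30, against 111 of the other abundant genes (8.33%). The shortest steady gene in exon bases, ENSGALG00000028683 on chromosome 9 (23034764 to 23038643, plus strand), averaged 164 CPM, and ENSGALG00000017330 on chromosome 1 (196638370 to 196645721, plus strand), with 1169 exon bases, averaged 1309 CPM. The longest, ENSGALG00000005782 on chromosome 8 (14159785 to 14264973, plus strand), averaged 322 CPM, and ENSGALG00000029261 on chromosome 3 (2503066 to 2562071, plus strand), with 8536 exon bases, averaged 515 CPM.

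**Figure D5:**
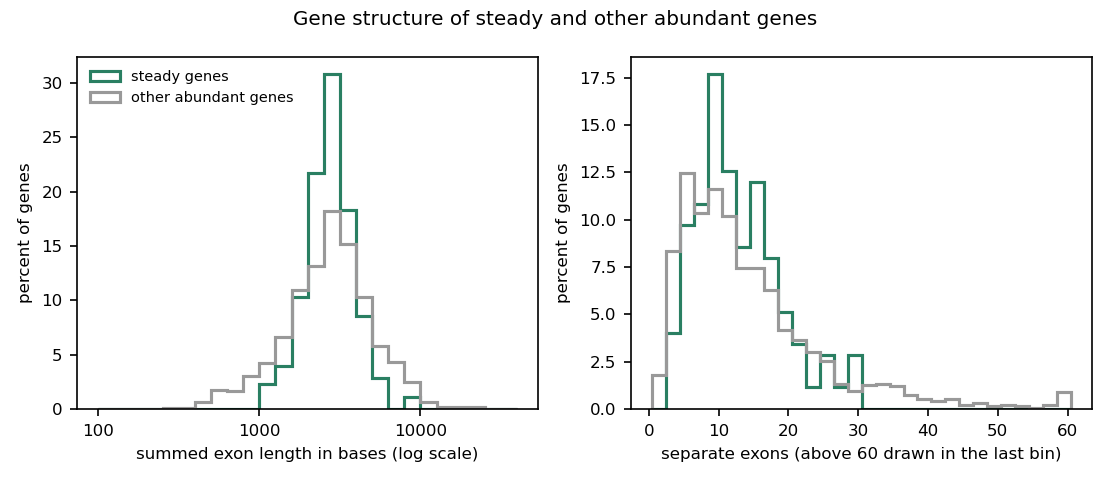
Percent of genes (vertical axes) by summed exon length in bases on a log scale (left) and by number of separate exons (right), for the 175 steady genes (green) and the 1333 other abundant genes (grey). The steady genes lie between 1074 and 8989 bases and between 3 and 30 exons, with 4% of them above 5000 bases, against 14.0% of the other abundant genes.

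Steady genes lay on 30 of the 36 chromosomes and scaffolds that held an abundant gene. Their share of the abundant genes was highest on chromosome 12 (9 of 42, 21.4%), against 11.6% over all abundant genes. Chromosomes 11 (8 of 41, 19.5%), 20 (7 of 38, 18.4%) and 3 (17 of 96, 17.7%) followed. It was 0 of 22 on chromosome 26, 1 of 26 on chromosome 17, 2 of 46 on chromosome 8, 1 of 23 on chromosome 22 and 2 of 41 on chromosomes 10 and 33 each. On the sex chromosome Z, which is present in different copy numbers in males and females, it was 1 of 39 (2.56%). The median group ratio was 1.58 over the abundant genes of Z and 1.53 over all abundant genes. Other chromosomes had a higher median than Z, such as 1.66 on chromosome 6 and 1.64 on chromosome 17. The counts per chromosome are small, and neither differences between chromosomes nor the part of copy number were tested. The plus strand carried 93 of the 175. In the order of all counted genes along a chromosome, 4 pairs of steady genes were direct neighbours, on chromosomes 2, 4, 12 and 20. The closest, ENSGALG00000010878 and ENSGALG00000010882 on chromosome 4, pointed away from each other with 613 bases between them and averaged 139 and 155 CPM. A gene annotated on the opposite strand overlapped 31 of the 175 steady genes (17.7%) and 208 of the 1333 other abundant genes (15.6%), and the counting was stranded. A gene annotated on the same strand overlapped the span of 22 of the 175 steady genes (12.6%) and 196 of the 1333 other abundant genes (14.7%), and reads on exons of both genes are not counted.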

How the data were processed

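Polyadenylated RNA of sorted GFP+ and GFP- cells was measured by stranded sequencing (NEBNext Ultra II Directional, per the labels' protocols). The submitters' processing notes name cutadapt 2.10, HISAT2 2.1.0 and SAMtools 1.9. The authors deposited raw counts of reads per gene. Per the file headers, featureCounts 1.6.2 made them from exons of the Ensembl release 99 annotation (GRCg6a), counting the reverse strand. Its recorded command does not enable multi-mapping or multi-overlapping reads, so genes with near-identical copies or overlapping neighbours are understated. Positions are on GRCg6a, 1-based, as in the deposited full table. Columns were joined to samples by name and samples to groups by label. The full table holds 50 libraries, and 42 of them stand in the authors' filtered table. Libraries of a group always differed by more than sampling noise, with a chi-square per degree of freedom of 7.84 for the closest pair (WE_12 replicates 1 and 2).

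CPM was computed on column sums. Differential tests used edgeR 4.0.16 on all genes that passed filterByExpr by group, with TMM scaling, robust dispersion, the quasi-likelihood F test and Benjamini-Hochberg adjustment over all genes tested. The fit of 12 groups and the test between library sets used the 42 kept libraries and 15737 genes, and the test of left-out libraries used all 50 and 16699 genes, both with group as a term. DESeq2 1.42.0, other scalings, filters, limits and single left-out libraries were the alternatives. After the data had been seen, limma 3.58.1 voom with and without the pool of embryos as a random block, each fraction alone, and the fit without NC_16 replicate 3 and WE_16 replicate 5 were added for the test between library sets, and library set as a further term for the test of left-out libraries. Intervals and floors cover counting error only. NC_6 replicate 4 has a floor of 5.86 CPM, which is 3 counts.

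The members and lists were chosen with earlier results of these data known. Genes named are the first 2 by mean level, lowest group ratio, nearness to the limit on either side, lowest and highest spread within groups, level per kilobase, lowest p in the tests of left-out libraries and library sets, and longest and shortest exon length. ENSGALG00000016691, ENSGALG00000053917, ENSGALG00000010878 and ENSGALG00000010882 were named after their values were seen. The reference gene table is on another assembly and 0 of its 25635 entries hold an Ensembl identifier, so 0 identifiers were matched, the planned gene lists and cell type markers were not tested, and no promoter or protein sequence was used.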

Additional observations from a re-analysis of the deposited data

Results flagged for a closer look

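In the 4 groups of 4 or 5 libraries, a value was listed where the highest or lowest library stood far from the others by Dixon's criterion at its 95% limit. The 76 checks covered 16 named steady genes, the 2 genes nearest outside the limit and the share of reads taken by the steady genes, and 7 were listed, all of steady genes. Chance lists about 5% of groups of a gene picked without regard to its spread. Some of these genes were picked for their spread or for differences between library sets, and 4 of the 7 come from 1 library, so that rate is no reference for the 7. In WE_12 the deviating library was replicate 3 for 4 genes. It was the lowest for ENSGALG00000012159 with 132 CPM, against 199 to 203 CPM in the other WE_12 libraries, for ENSGALG00000016481 with 79.2 CPM, against 143 to 154 CPM, and for ENSGALG00000008372 with 149.8 CPM, against 226 to 237 CPM. It was the highest for ENSGALG00000015791 with 275 CPM, against 189 to 203 CPM. This library is the kept library of set 9236 in its group, and the part of the set in these values was not tested.

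In WE_16, replicate 5 was the lowest for ENSGALG00000012159 with 69.3 CPM, against 166 to 195 CPM in the other WE_16 libraries, and for ENSGALG00000013452 with 65.9 CPM, against 104 to 118 CPM. In NC_16, replicate 3 was the highest for ENSGALG00000029261 with 756 CPM, against 476 to 527 CPM in the other NC_16 libraries. These libraries had 12278 genes with 10 or more reads in WE_16 replicate 5 and 11128 in NC_16 replicate 3, the part of which in these values was not tested.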

How the results depend on the processing

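The number of steady genes depends on its limits. It was 18 at a ratio of 1.2, 696 at 1.5, 253 with a minimum of 50 CPM, 75 with a minimum of 200 CPM, 108 with medians in place of group means, 55 with all 50 libraries and 235 with all libraries but NC_6 replicate 4 (an alternative chosen after seeing the data), and 138 to 190 when single kept libraries were left out. The cause was not tested beyond these constructions.

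Over the 12 groups, where 0 steady genes passed, 1 passed with DESeq2 size factors in edgeR (28.4% of all genes tested), 1 with a filter of 1 CPM in 3 libraries (29.7%), 12 with DESeq2 (39.4%), and 0 to 1 without single libraries (25% to 31.5%). Between fractions 1 passed with DESeq2 (9.84% of all genes) and 0 without any single library (2.88% to 5.79%). Between neighbouring stages 2 passed with DESeq2 (8.34%) and 0 to 1 without single libraries (1.98% to 4.27%). Of the left-out against kept comparison 1 passed without a filter (14.3% of all genes, 0.332% of abundant genes), 2 with DESeq2 (9.57% and 0.796%) and 0 to 1 without single libraries. The share of all genes was 14.3% to 14.5% without 1 of the 6 HH14 libraries (19643 to 19661 genes tested, 1 steady gene in each fit). It was 0% to 3.3% without 1 of the other 44 (16100 to 16713 genes tested, 1 steady gene in 1 fit), and 0% of 15570 genes in stages with a left-out library only, where 0 steady genes passed. With library set as a further term, also chosen after seeing the data, 0 passed (0.0299%). Between library sets 58 passed (38.7% of all genes), against 83 with DESeq2 (49.6%), 72 without scaling beyond the column sum (41.4%), 66 with DESeq2 size factors in edgeR (39.1%), 60 with the filter of 1 CPM (42.2%), 42 without the sets of fewer than 4 libraries (27.7%), 34 without a filter (23.9%), 7 with all 50 libraries (27.6%) and 48 to 81 without single libraries (33.5% to 45.7%). Of the abundant genes 58.6% passed in the main fit, 67.6% with DESeq2, 49.4% without a filter and 23.5% with all 50 libraries. Chosen after seeing the data were limma voom (64, 39.4%), limma voom with the pool as a random replicate block (50, 32%), GFP+ libraries alone (31, 30.1%), GFP- libraries alone (0, 12.1%) and the fit without NC_16 replicate 3 and WE_16 replicate 5 (68, 45.8%). The median log2 difference of the steady genes between left-out and kept libraries ran from -0.35 without WE_10 replicate 1 to -0.07 without NC_6 replicate 4. The cause of each of these moves was not tested.

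The titles name a pool of embryos shared by GFP+ and GFP- libraries, and the deviations of 19 such pairs from their group means correlated at 0.0760 to 0.755, with 18 above 0.1. With this pool as a replicate block, 0 steady genes passed between GFP+ and GFP- cells, as without it, where 7.23% of all genes tested passed with the block and 4.17% without it. NC_6 replicate 4 had the fewest reads, 512123, and the steady genes took a smaller share of them, 1.05%, than in kept libraries. Both lowered the reads per gene there, and the median steady gene had 26.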

Other observations

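Of the 175 steady genes 33 met the rule in each of the 42 rerun selections that left out a single kept library, and the gene that met it least often did so in 30 of the 42. On both TMM-scaled sizes and DESeq2 size factors 92 of the 175 met it. In every one of these selections, with group medians and with all libraries but NC_6 replicate 4, 22 genes met it. Among them are ENSGALG00000009288 and ENSGALG00000005622, with group ratios of 1.11 and 1.12 on column sums and 1.21 and 1.21 on TMM-scaled sizes. ENSGALG00000015791, which had the lowest p between library sets, is also among the 22, with a group ratio of 1.17 on column sums and 1.23 on TMM-scaled sizes. These genes were picked from the same libraries, so their number is a description.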
